A study of Danio rerio with 8 samples.

Results

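FinTRIM (ftr) and bloodthirsty (btr) genes are 2 families of tripartite-motif (TRIM) genes that have expanded in fish. All rows of the counts table whose gene ID maps to a symbol that starts with ftr or btr and a digit were taken, which gave 96 genes of 32520 in the table, 74 of them finTRIM and 22 bloodthirsty. No measured value enters that rule, but the families were put forward with results of the comparison by father known, so their values in that comparison are given as a description and support no claim of their own. Bulk RNA sequencing was done on whole ventricles from adult zebrafish (Danio rerio), with the atrium and the outflow bulb dissected away and the ventricle opened to let red blood cells out. The fathers either had a heart cryoinjury, a freeze wound, and were crossed at 7 days after it (4 libraries, numbered 1, 2, 4 and 7 in the labels), or were uninjured (4 libraries, numbered 1, 3, 4 and 5). All mothers were uninjured, the offspring hearts themselves were studied unperturbed, and each library pooled 4 sibling fish. The labels name no strain, sex or age beyond adult and do not tie pools to single fathers, so that every p given here reflects how pools vary. The question behind the design is whether offspring ventricles differ in expression when the father's heart had been injured.

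TRIM proteins carry a RING domain, which lets them act as ubiquitin ligases, followed by B-box and coiled-coil segments. In finTRIM and bloodthirsty proteins a B30.2 (PRY-SPRY) domain, the part that contacts a target, usually stands at the C-terminal end. FinTRIM genes were first found in trout as genes induced by virus, and in zebrafish ftr83 is known to induce type I interferon. The bloodthirsty family is named after a zebrafish gene needed for red blood cell formation. Roles of most single members are not known, so the members below are described by level and position.

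Libraries of injured fathers held 8441014 to 16290169 counts and those of uninjured fathers 12450251 to 14736121. CPM here means a gene's count scaled to 1000000 counts of its library's TMM-adjusted total, and CPM per kb divides that by the length of the counted exons. A count of 0 in a library allows up to 3 counts, which is 0.175 to 0.330 CPM in the libraries of injured fathers and 0.216 to 0.240 CPM in those of uninjured fathers, for counting error only. Of the heart muscle markers, 4 of 10 matched a symbol, and their summed level was 87135 to 111079 CPM with injured fathers and 100394 to 122269 CPM with uninjured fathers. Atrium markers (2 of 3 matched) summed to 734 to 1223 CPM with injured fathers and 641 to 1186 CPM with uninjured fathers. Symbols were matched with case ignored, and most of this sum came from a gene listed as MYH6 (ENSDARG00000079564), at 425 to 1051 CPM. The gene listed as myh6 (ENSDARG00000090637) was at 48.3 to 270 CPM and myl4 at 0.992 to 3.05 CPM. Smooth muscle markers of the outflow bulb (3 of 5 matched) summed to 93.0 to 124 and 90.7 to 190 CPM, in the same order of groups. Of these, TAGLN and acta2 made up most of the sum, and elnb was at 0.467 to 4.18 CPM. RNA with these markers was still measured after the dissection. Whether the gene listed as MYH6 marks the atrium was not tested, so the atrium sum is no measure of atrial tissue left. Reads from ventricles in bulk do not tell fewer cells of a type from less RNA per cell.

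Most members of both families had few uniquely placed reads in the ventricle, and a few finTRIM genes held most of the counts. At least 10 counts over the 8 libraries were found for 59 of the 96 members (61.5%), against 55.5% of all genes in the table; 46 of these were finTRIM and 13 bloodthirsty. A count of 0 in all 8 libraries was found for 10 finTRIM genes (ftr14l, ftr42, ftr53, ftr54, ftr55, ftr66, ftr86, ftr87, ftr94 and ftr99) and 4 bloodthirsty genes (btr05, btr06, btr30 and btr33). A further 18 finTRIM members (ftr01, ftr03, ftr06 to ftr12, ftr19, ftr22, ftr25, ftr26, ftr38, ftr60, ftr61, ftr69 and ftr70) and 5 bloodthirsty members (btr01, btr02, btr07, btr12 and btr32) had 1 to 9 counts in all. A filter on low counts (edgeR's filterByExpr) left 34 members for testing, 26 finTRIM and 8 bloodthirsty, with 68 to 4937 counts each. The other 25 detected members had 11 to 75 counts; they were ftr02, ftr04, ftr15, ftr23, ftr24, ftr30 to ftr37, ftr43, ftr57, ftr58, ftr81, ftr83, ftr85 and ftr95, with btr16, btr19, btr21, btr22 and btr23. By symbol 77 members matched a RefSeq gene (GRCz12tu), 76 of them protein coding and 1, ftr53, a pseudogene. Members whose reads cannot be placed uniquely among near-identical copies lose those reads, so a low count in these families is not by itself a low level of RNA.

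Among the finTRIM genes ftr82 stood first, with 21.7 CPM per kb over the 8 libraries, higher than 87.8% of all genes tested. It held 32.8% of the 15054 finTRIM counts, and together with ftr67, ftr72, ftr14 and ftr80 it held 60.6%. Next in level per length were ftr67 at 7.90, ftr72 at 5.59, ftr80 at 4.19, ftr14 at 3.50 and ftr56 at 2.33 CPM per kb. After these came ftr76 at 1.69 and ftr78 at 1.58 CPM per kb, and the median tested finTRIM gene was at 1.03 CPM per kb. Tested bloodthirsty genes were lower and closer to each other in level, with a median of 0.602 CPM per kb and a range of 0.393 to 1.02. Their highest were btr26 at 1.02, btr29 at 0.882 and btr18 at 0.759 CPM per kb, and 5 members (btr26, btr18, btr29, btr24 and btr09) held 70.4% of the 1401 bloodthirsty counts. CPM per kb divides by the full exon length, although bases shared with another gene take no count. It therefore understates genes with shared exons, such as btr26, btr18, btr25 and ftr78. The order and range of close levels can depend on this. The median over all genes tested was 2.91 CPM per kb.

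**Figure D1:**
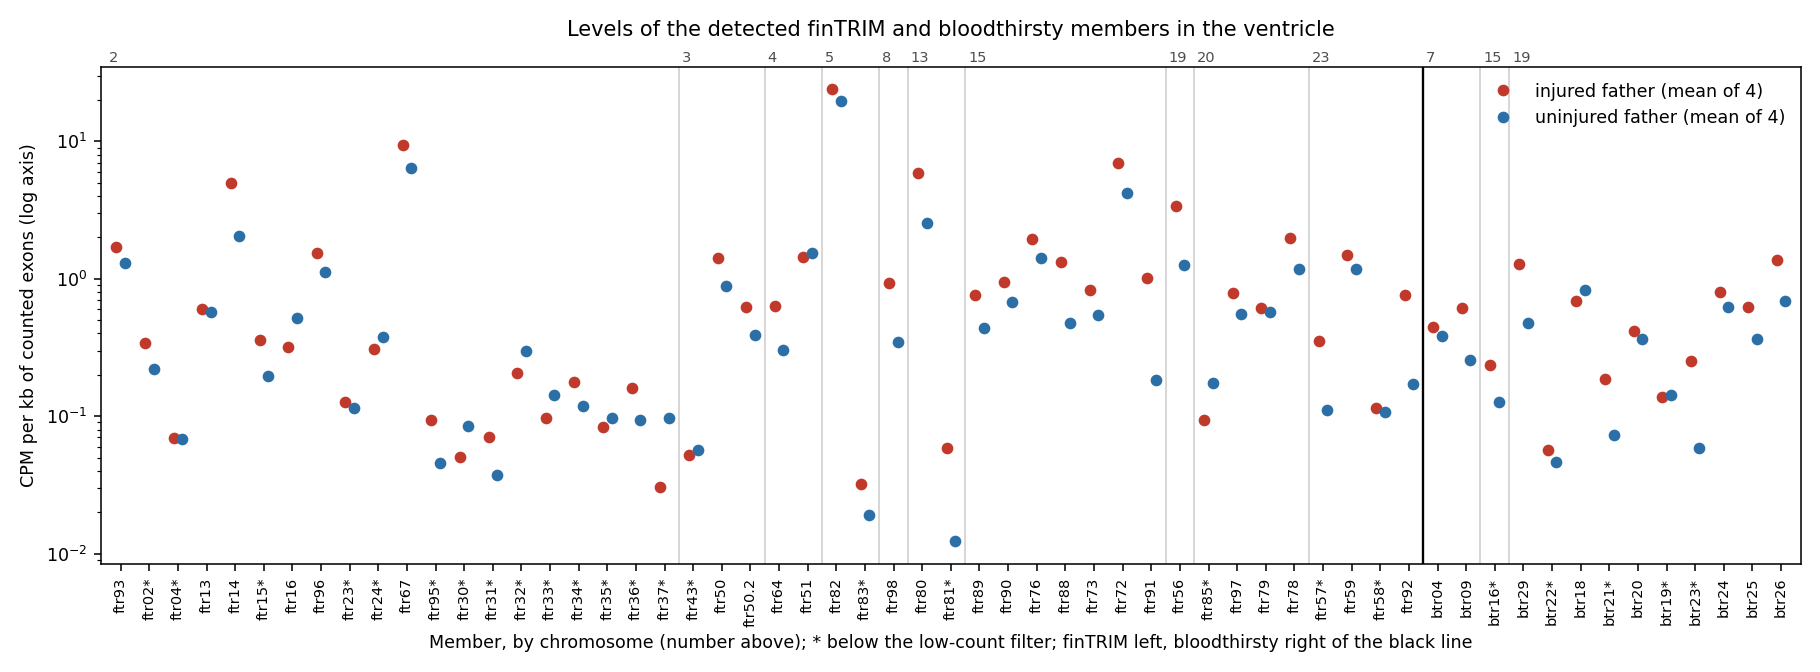
Mean level of each detected member, in CPM per kb of counted exons on a log axis, in 4 libraries of injured fathers (red) and 4 of uninjured fathers (blue), with members ordered by chromosome (numbers on top) and those below the low-count filter starred. The gene ftr82 stands highest at 21.7 CPM per kb over all libraries, and the chromosome 2 genes ftr95 to ftr37 lie among the lowest.

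Most genes of both families lie near other members of their own family. With members of one family joined where at most 500 kb separates them, 57 of the 74 finTRIM genes fell into 13 clusters and 13 of the 22 bloodthirsty genes into 2 clusters (GRCz11 coordinates of the counts table). With a limit of 100 kb the same numbers of genes fell into 15 and 3 clusters. Chromosome 2 carries 36 finTRIM genes, and chromosome 19 carries 11 bloodthirsty genes. The largest cluster under the 500 kb limit, ftr02 to ftr15 on chromosome 2 (42236118 to 43151358), has 13 members, of which 5 were detected and 2 tested. Under the 100 kb limit it splits between ftr10 (end 42345571) and ftr11 (start 42708674), and again between ftr12 and ftr13. The cluster from ftr95 to ftr38 on the same chromosome (59174872 to 59376735) has 10 members, all on the minus strand; 9 were detected, none passed the filter, and the highest total was 32 counts. In the cluster ftr96 to ftr19 (chromosome 2, 47869807 to 47951567) 3 of 7 members were detected and 1 was tested. By contrast, all 7 members of the finTRIM cluster on chromosome 15 (41711727 to 41762565; ftr89, ftr90, ftr76, ftr88, ftr73, ftr72 and ftr91, all on the minus strand) were detected and tested. In the bloodthirsty cluster on chromosome 19 (3729008 to 4071582) all 9 members were detected and 5 tested, while in the cluster btr04 to btr07 on chromosome 7 (16185376 to 16237861) btr04 alone was detected. The chromosome 19 cluster splits between btr18 and btr23 under the 100 kb limit.

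Neighbours overlap in places, and reads that fall on exons of more than 1 gene were not counted. Of the 96 members 18 share exon bases with another gene, and 9 of them over 20% of their counted length. The overlapping pairs inside the clusters are btr18 with btr22, btr25 with btr26, ftr78 with ftr79, ftr89 with ftr90 and ftr04 with ftr09. For btr25 42.3% of the length is shared, for btr26 32.8% and for btr18 30.5%, so their values come from the rest of the gene. Their CPM per kb, divided by the full length, is too low for that reason.

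Summed over all members of a family, the RNA was higher with injured fathers in both families. The 74 finTRIM genes summed to 145, 181, 168 and 201 CPM in libraries 1, 2, 4 and 7 of injured fathers, and to 110.7, 123, 105 and 128 CPM in libraries 1, 3, 4 and 5 of uninjured fathers. That was 174 ± 23.1 against 117 ± 10.4 CPM (SD, n = 4 each), a ratio of 1.49, and the groups did not overlap. Without ftr82, the most abundant member, the sums were 120 ± 23.9 CPM with injured fathers and 72.7 ± 8.10 CPM with uninjured fathers, a ratio of 1.65. The 22 bloodthirsty genes summed to 17.1, 17.1, 15.8 and 16.8 CPM in libraries 1, 2, 4 and 7 of injured fathers, and to 14.4, 9.76, 10.96 and 6.87 CPM in libraries 1, 3, 4 and 5 of uninjured fathers. That ratio was 1.59, and here too the groups did not overlap, though with library sizes alone as the scaling they did: the lowest library of injured fathers was then at 14.4 CPM and the highest of uninjured fathers at 14.6 CPM. Without injured-father library 7 the ratios were 1.41 for finTRIM and 1.59 for bloodthirsty genes.

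Single members were mostly higher with injured fathers, but none passed the test. The 59 detected members were selected on their measured counts, at least 10 summed over the 8 libraries of both groups. High counts in 1 group can carry a member over that limit, as in ftr81 and btr23, so the shares describe the selected members only. Of the 59, 47 had the higher mean CPM with injured fathers (79.7%), against 50.2% of all genes selected on the same limit. Among the 25 detected members that failed the filter the share was 64.0%, against 54.8% of all genes of that kind. A positive log2 fold of injured over uninjured fathers was found for 31 of the 34 members that passed, where 48.6% of all genes tested had one. The exceptions were ftr16, ftr51 and btr18. The median log2 fold was 0.66 over the 26 tested finTRIM genes and 0.55 over the 8 tested bloodthirsty genes, and -0.01 over all 13604 genes tested. A filter that asks for counts in 4 libraries can let a gene through because it is high in one group, so these figures describe the members that passed and no more; ftr91 and ftr92 had no uninjured-father library at the level the filter asks for.

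The edgeR quasi-likelihood test with Benjamini-Hochberg adjustment over all genes called 0 of the 34 members, and the background was 0% of all genes; the smallest adjusted p of a member was 0.39, of ftr91. At an unadjusted p under 0.05, 13 members were higher and 0 lower, with a background of 3.67% higher and 3.47% lower over all genes. The injured-father values all exceeded the uninjured-father values in 11 tested members and all fell short of them in 0, against 2.6% and 1.58% of all genes. DESeq2 called 1 member higher, ftr91 (adjusted p = 0.022), and 0 lower, against 0.324% and 0.125% of all genes. Both ftr91 and ftr92 reached the filter's level in injured-father libraries alone. They are also counted above at the unadjusted p and among the members without overlap. All these counts of members belong to the comparison with which the families were chosen, and nothing further is read from them.

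**Figure D2:**
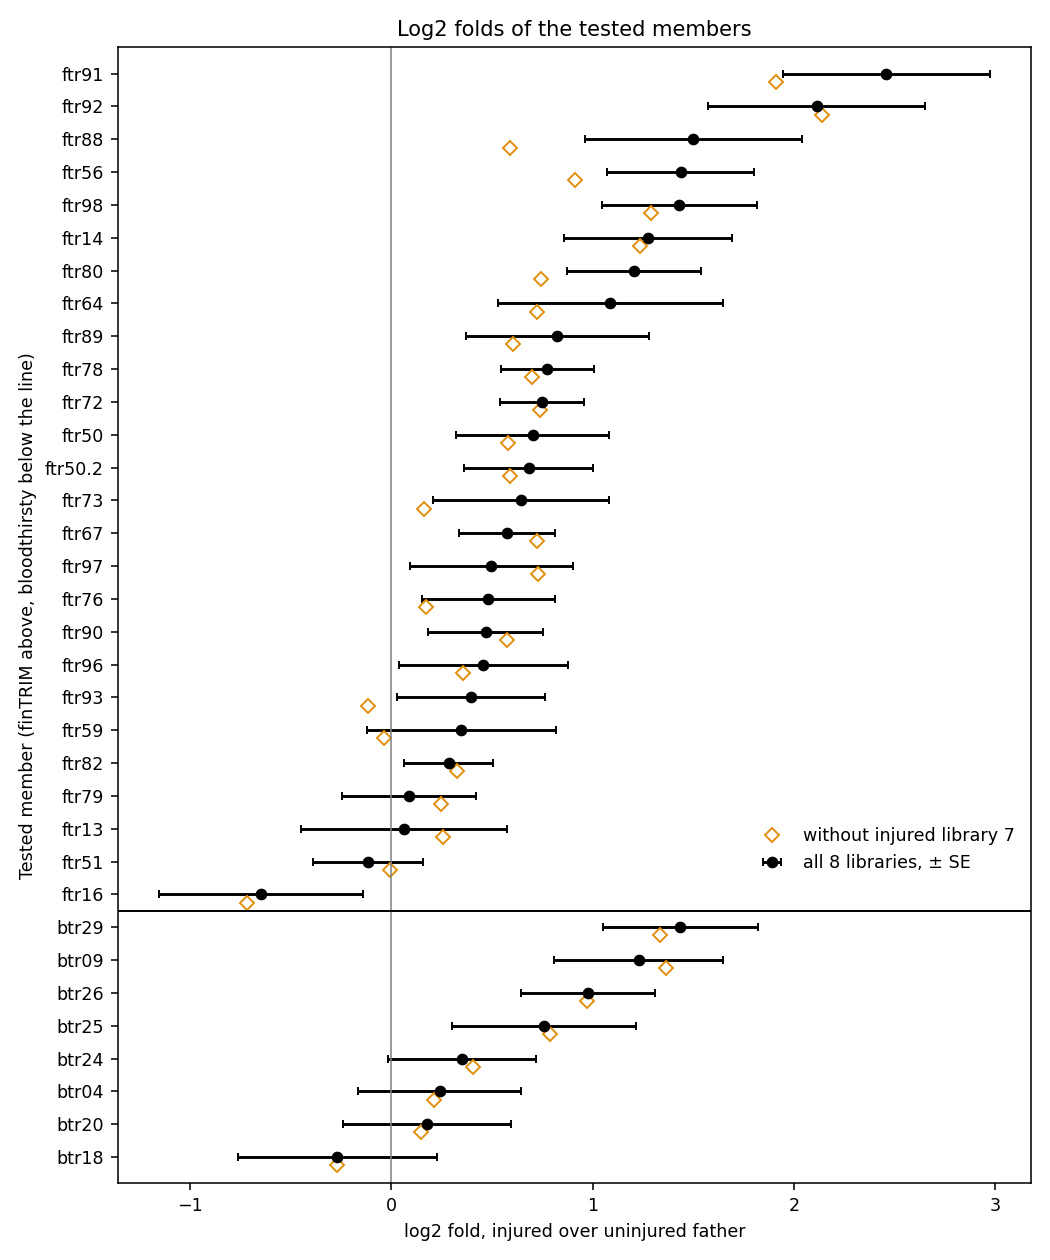
Log2 fold of injured over uninjured father for the 34 tested members, finTRIM above and bloodthirsty below the black line, with all 8 libraries (black points, bars are ± SE) and without injured-father library 7 (open diamonds). Most points lie right of 0; ftr88 is at 0.59 without that library and at 1.5001 with it, while btr29 and ftr92 stay close to their values.

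The finTRIM genes with the smallest p lay on 5 different chromosomes. The gene ftr91 (ENSDARG00000098004, chromosome 15, 41757442 to 41762565) was at 1.17, 0.989, 1.52 and 3.39 CPM in injured-father libraries 1, 2, 4 and 7, and at 0.365, 0.400, 0.361 and 0.156 CPM in uninjured-father libraries 1, 3, 4 and 5. The groups did not overlap, and the log2 fold was 2.46 (SE 0.51), or 1.91 without injured-father library 7, which held the highest value. The uninjured-father values of ftr91 rest on 5, 5, 5 and 2 counts. Like ftr92, it reached the filter's level in injured-father libraries alone. The gene ftr92 (ENSDARG00000095825, chromosome 23, 45887202 to 45897900) was at 0.897, 1.54, 0.986 and 1.05 CPM with injured fathers, and at 0.146, 0.560, 0.0721 and 0.234 CPM with uninjured fathers. Its log2 fold was 2.11 (SE 0.54) with no overlap, on 68 counts in all, and 2 of the uninjured-father values are at 1 or 2 counts.

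Both ftr56 and ftr80 were more abundant and peaked in injured-father library 7. The gene ftr56 (ENSDARG00000030954, chromosome 19, 12398544 to 12404590, outside the bloodthirsty cluster there) was at 6.37, 5.38, 5.31 and 15.4 CPM in injured-father libraries 1, 2, 4 and 7, and at 2.63, 2.56, 3.97 and 2.89 CPM with uninjured fathers. The gene ftr80 (ENSDARG00000067661, chromosome 13, 33452096 to 33458790) was at 6.998, 6.37, 7.36 and 17.1 CPM with injured fathers, and at 3.58, 3.52, 4.18 and 5.23 CPM with uninjured fathers. In both genes the groups stayed apart without library 7 as well, and the log2 fold was then 0.91 for ftr56 and 0.74 for ftr80, against 1.437 (SE 0.37) and 1.21 (SE 0.34) with all libraries. The fifth, ftr98 (ENSDARG00000052332, chromosome 8, 39827198 to 39838660), was at 1.70, 0.879, 1.441 and 1.87 CPM with injured fathers and at 0.730, 0.480, 0.433 and 0.547 CPM with uninjured fathers, for a log2 fold of 1.43 (SE 0.38) with no overlap.

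**Figure D3:**
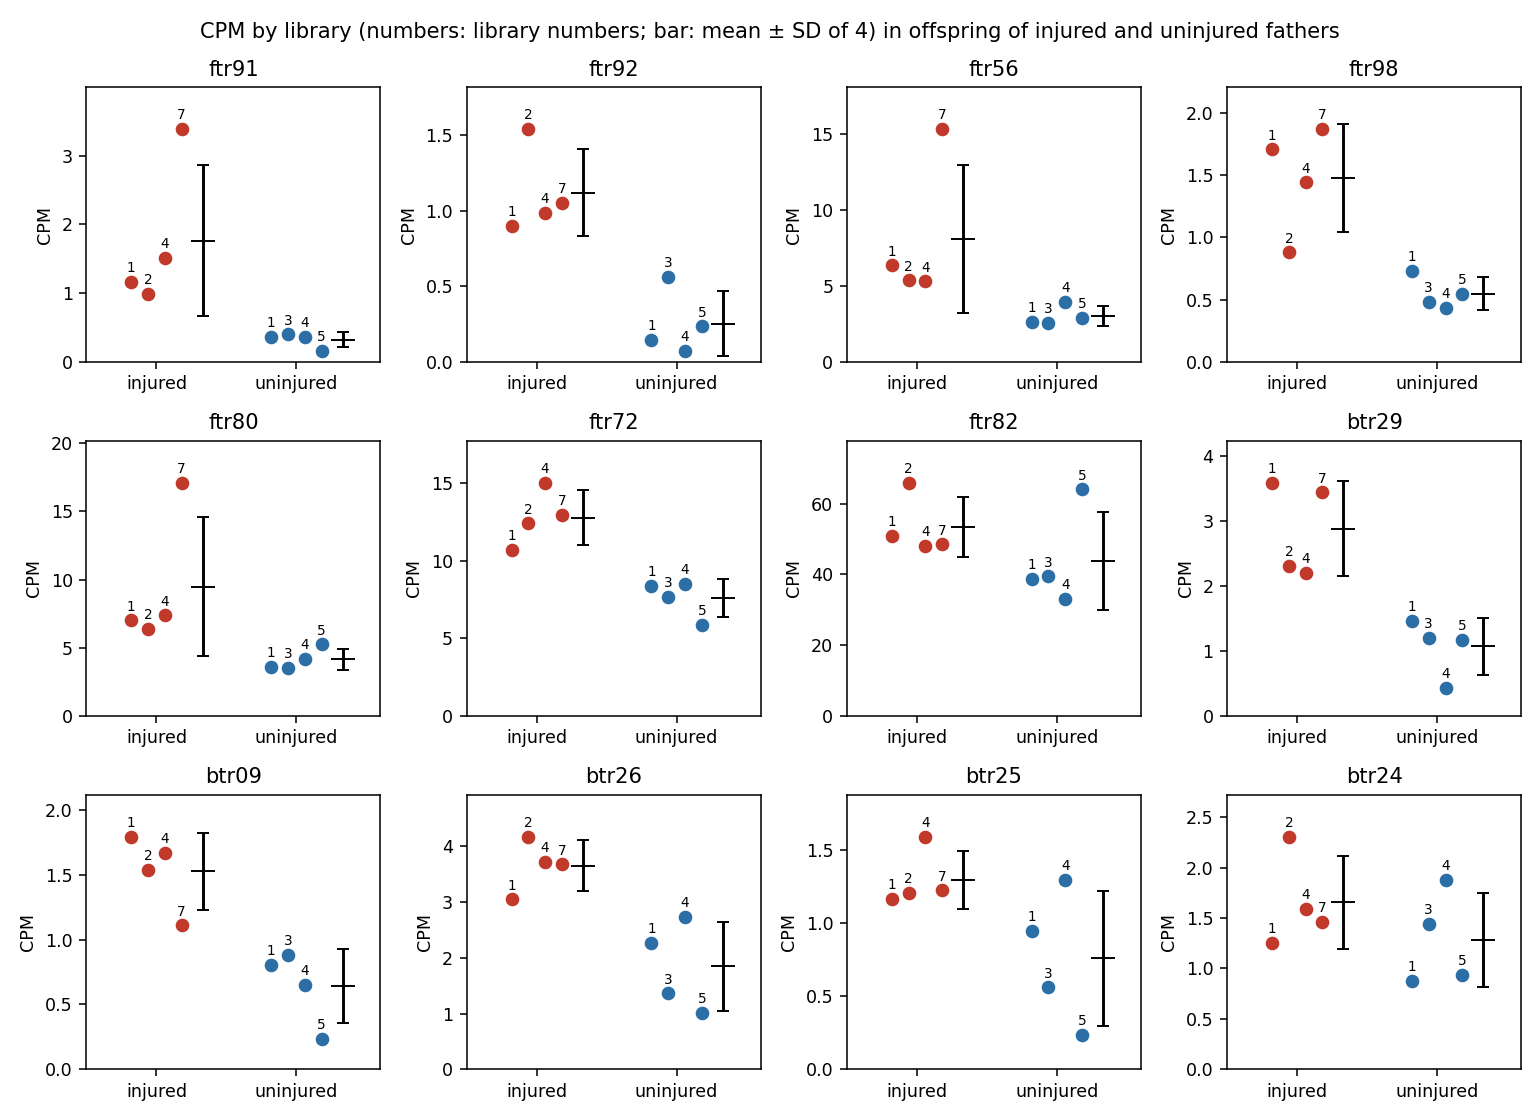
CPM in each library for 7 finTRIM and 5 bloodthirsty genes (the 5 of each family with the smallest p among those higher, plus ftr72 and ftr82), injured fathers in red on the left and uninjured fathers in blue on the right of each panel, with library numbers and the mean ± SD of 4. In ftr56 and ftr80 library 7 stands at 15.4 and 17.1 CPM, far above the other injured-father libraries, while in ftr72 and btr26 the 4 libraries of injured fathers lie close together.

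Of the finTRIM genes with the highest levels per length, ftr82 and ftr67 had log2 folds below the finTRIM median of 0.66, and ftr72, ftr80, ftr14 and ftr56 above it. The leading gene ftr82 (ENSDARG00000055647, chromosome 5, 30707133 to 30715225) was at 51.0, 65.9, 48.2 and 48.5 CPM in injured-father libraries 1, 2, 4 and 7, and at 38.8, 39.5, 33.02 and 64.1 CPM in uninjured-father libraries 1, 3, 4 and 5. Uninjured-father library 5 reached the level of injured fathers, so the groups overlapped, and the log2 fold was 0.28 (SE 0.22). It was 0.52 without that library, and 0.17 without injured-father library 2 or without uninjured-father library 4. The gene ftr67 (ENSDARG00000098820, chromosome 2, 51065777 to 51087077) was at 14.98, 19.0, 24.6 and 11.9 CPM with injured fathers and at 12.04, 13.9, 10.96 and 10.4 CPM with uninjured fathers, which gave a log2 fold of 0.57 (SE 0.24), or 0.36 without injured-father library 4. Library 7, which led in ftr56 and ftr80, was here the lowest of the injured-father libraries.

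The gene ftr72 (ENSDARG00000026704, chromosome 15, 41752335 to 41756507) was at 10.7, 12.4, 15.02 and 12.96 CPM with injured fathers and at 8.39, 7.68, 8.51 and 5.86 CPM with uninjured fathers. Its log2 fold was 0.75 (SE 0.21), the groups did not overlap, and the value without library 7 was 0.74. The gene ftr14 (ENSDARG00000053293, chromosome 2, 43131147 to 43135700) was at 5.92, 14.9, 15.2 and 13.3 CPM with injured fathers and at 4.38, 9.92, 3.17 and 2.97 CPM with uninjured fathers. Injured-father library 1 lay below uninjured-father library 3, so that its log2 fold of 1.27 (SE 0.42) came with an overlap. The gene ftr78 (chromosome 20, 26931496 to 26937453) averaged 6.77 ± 1.03 CPM with injured fathers and 3.96 ± 0.602 CPM with uninjured fathers (SD, n = 4), with no overlap, while ftr76 (chromosome 15) averaged 5.47 ± 2.28 and 3.94 ± 1.21 CPM and overlapped.

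Of the 26 tested finTRIM genes, 2 had a lower mean with injured fathers. Of the 46 detected ones, 36 had the higher mean with injured fathers. The gene ftr16 (chromosome 2, 43742574 to 43745175) averaged 0.554 ± 0.310 CPM with injured fathers and 0.905 ± 0.3575 CPM with uninjured fathers (SD, n = 4), a log2 fold of -0.65 (SE 0.51). The gene ftr51 (chromosome 4, 76468839 to 76494299) averaged 5.41 ± 1.77 and 5.82 ± 1.19 CPM, a log2 fold of -0.12 (SE 0.27). Both differences were of the size of their errors, and the groups overlapped.

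Within the chromosome 15 cluster all 7 genes had positive log2 folds, but of unequal size, from 0.47 (ftr90) to 2.46 (ftr91). Summed over the cluster, the level was 23.7, 29.4, 29.2 and 45.0 CPM in injured-father libraries 1, 2, 4 and 7, and 18.7, 21.8, 18.5 and 13.5 CPM in uninjured-father libraries 1, 3, 4 and 5, with no overlap. Library 7 held the highest value in 5 of the 7 genes, though not in ftr72 or ftr90. Its share was largest in ftr88, picked out after its values were seen, which was at 2.42, 3.84, 2.73 and 13.1 CPM with injured fathers and at 1.39, 2.88, 2.16 and 1.48 CPM with uninjured fathers. The log2 fold of ftr88 was 1.5001 (SE 0.54) with that library and 0.59 without it, and the median of the cluster was 0.75 with it and 0.59 without it.

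Of the other clusters, some separated by group in the same direction and some overlapped. In the chromosome 20 cluster (ftr97, ftr79 and ftr78) the sum was 8.52 to 11.5 CPM with injured and 5.26 to 7.66 CPM with uninjured fathers. In the chromosome 3 cluster (ftr43, ftr50 and ftr50.2) it was 3.08 to 4.61 and 1.66 to 2.96 CPM. In the chromosome 13 cluster of ftr80 and ftr81 it was 6.37 to 17.2 and 3.52 to 5.23 CPM, mostly from ftr80. None of these overlapped, and no background for cluster sums is given here. The large cluster ftr02 to ftr15 on chromosome 2 averaged 15.5 ± 4.77 CPM with injured fathers and 7.39 ± 4.101 CPM with uninjured fathers (SD, n = 4). Most of its counts were those of ftr14, and its groups overlapped. The cluster ftr96 to ftr19 was at 2.33 ± 0.904 and 2.13 ± 0.332 CPM, and the 10-member cluster ftr95 to ftr38 at 1.68 ± 0.582 and 1.61 ± 0.394 CPM. A difference between families or between clusters was not tested.

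**Figure D4:**
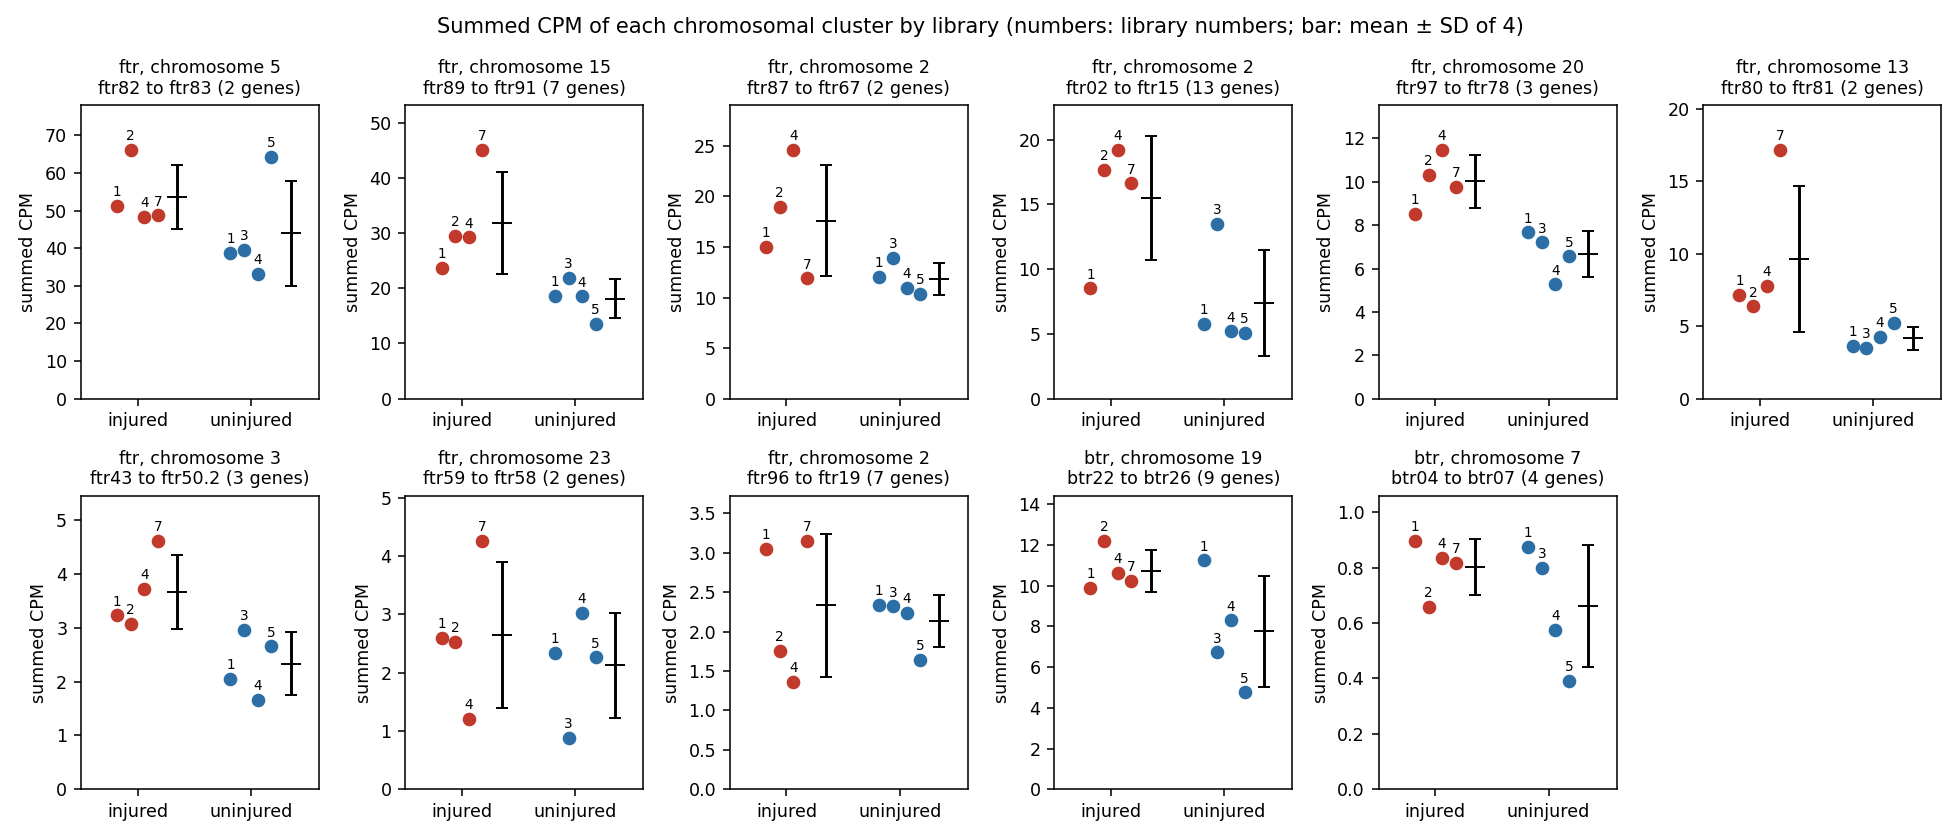
Summed CPM of the members of each chromosomal cluster with at least 1 tested member, by library, injured fathers in red on the left and uninjured fathers in blue on the right of each panel, with library numbers and the mean ± SD of 4. The cluster ftr89 to ftr91 on chromosome 15 ranges from 23.7 to 45.0 CPM with injured fathers and from 13.5 to 21.8 CPM with uninjured fathers, while the cluster ftr96 to ftr19 on chromosome 2 overlaps fully.

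Of the bloodthirsty genes, btr29 showed the largest difference. It lies alone on chromosome 19 (ENSDARG00000099138, 1414604 to 1421856), outside the cluster, and was at 3.59, 2.31, 2.20 and 3.44 CPM in injured-father libraries 1, 2, 4 and 7, and at 1.46, 1.2003, 0.433 and 1.17 CPM in uninjured-father libraries 1, 3, 4 and 5. The groups did not overlap, and its log2 fold was 1.436 (SE 0.38). The gene btr09 on chromosome 7 (ENSDARG00000054805, 24520518 to 24527246) was at 1.79, 1.54, 1.67 and 1.11 CPM with injured fathers and at 0.803, 0.880, 0.649 and 0.234 CPM with uninjured fathers, for a log2 fold of 1.23 (SE 0.42). In the chromosome 19 cluster btr26 (ENSDARG00000105241, 4061712 to 4071582) was at 3.05, 4.17, 3.72 and 3.68 CPM with injured fathers and at 2.26, 1.36, 2.74 and 1.02 CPM with uninjured fathers, for a log2 fold of 0.98 (SE 0.33). In btr09 and btr26 the groups did not overlap either, and uninjured-father library 5 was the lowest in both.

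Other members of that cluster differed less from group to group. The overlapping neighbour btr25 averaged 1.298 ± 0.198 CPM with injured fathers and 0.760 ± 0.462 CPM with uninjured fathers (SD, n = 4), btr24 averaged 1.65 ± 0.457 and 1.28 ± 0.469 CPM, and btr20 averaged 0.832 ± 0.151 and 0.731 ± 0.345 CPM. The gene btr18 ran the other way, at 2.13 ± 0.850 CPM with injured fathers and 2.54 ± 1.88 CPM with uninjured fathers, where library 1 alone held 5.26 CPM. Without that library its log2 fold was 0.36, against -0.27 with all libraries. On chromosome 7 btr04 averaged 0.775 ± 0.154 and 0.661 ± 0.221 CPM. All 5 of these overlapped between the groups.

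Haemoglobin genes, markers of the red blood cells after whose formation the bloodthirsty family is named, took 0.155% to 0.360% of the counts with injured fathers and 0.0900% to 0.171% with uninjured fathers. With that share as a covariate the median log2 fold was 0.46 over the tested bloodthirsty genes and 0.69 over the tested finTRIM genes. The share itself averaged 0.215% with injured and 0.113% with uninjured fathers, so this fit cannot tell red blood cell content from the father's injury. The part of red blood cells in the values of the members was not tested.

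The interferon inducer ftr83 (chromosome 5, 30741730 to 30753167), next to ftr82, had 16 counts in the 8 libraries. It was at 0.191 ± 0.0731 CPM with injured fathers and 0.115 ± 0.0992 CPM with uninjured fathers (SD, n = 4), with 0 to 4 counts in each library, so a difference was not detectable at this depth. Below the filter, ftr02 (75 counts) and ftr24 (70) had the most counts among finTRIM genes. Among bloodthirsty genes btr16 had the most (47), and btr19 had 26, as had btr21 and btr23. The gene ftr02 averaged 0.874 ± 0.312 CPM with injured fathers and 0.567 ± 0.215 CPM with uninjured fathers, and ftr24 averaged 0.591 ± 0.341 and 0.722 ± 0.145 CPM. The gene btr16 averaged 0.580 ± 0.326 and 0.315 ± 0.380 CPM, and btr19 averaged 0.239 ± 0.162 and 0.247 ± 0.156 CPM. In these 4 genes the groups overlapped.

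Many finTRIM genes had their highest value in the same library. Of the 26 tested finTRIM genes 14 were highest in injured-father library 7 (53.8%), against 9.64% of all genes tested, and none of the 8 tested bloodthirsty genes was. In some injured-father library, whichever it was, 24 of these finTRIM genes were highest (92.3%), against 47.6% of all genes tested. Bloodthirsty genes peaked in injured-father library 1 (3 genes), 2 (2) and 4 (1) and in uninjured-father library 1 (2). Without injured-father library 7, 29 of the 34 tested members were still above 0 in log2 fold, where the background was 49.3%, and 12 were higher and 0 lower at an unadjusted p under 0.05, where the background was 4.96% and 4.66%. Chosen after their values were seen, ftr93 and ftr59 turned to log2 folds of -0.12 and -0.04 without it, against 0.40 and 0.35 with all libraries. A difference between the families was not tested.

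**Figure D5:**
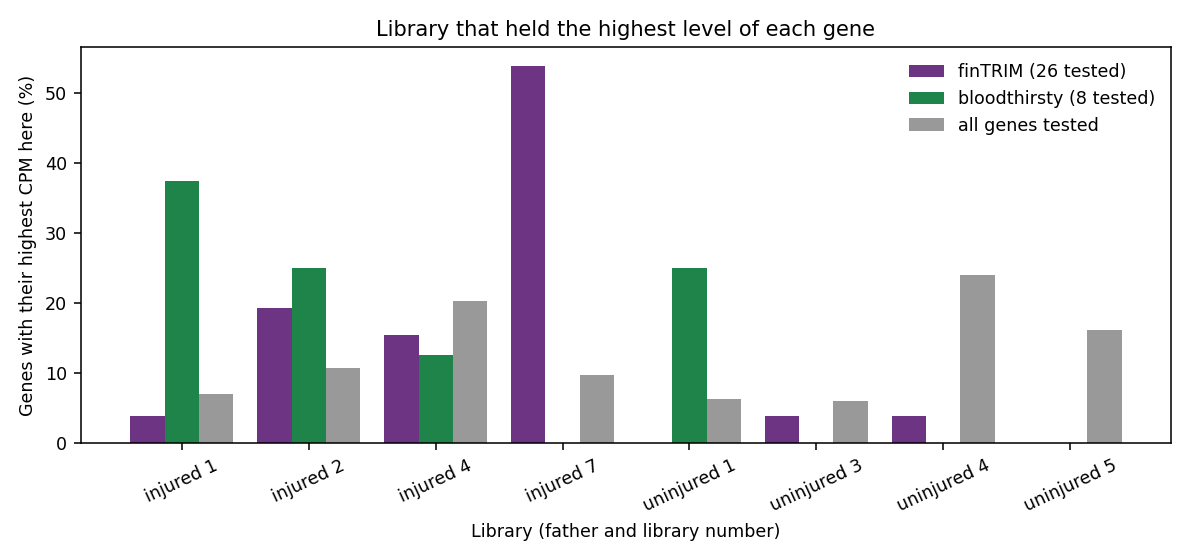
Share of tested genes, in percent, whose highest CPM among the 8 libraries lay in the library named below, for 26 finTRIM genes (purple), 8 bloodthirsty genes (green) and all genes tested (grey), injured fathers on the left. Injured-father library 7 held the highest level of 53.8% of the finTRIM genes and of 9.64% of all genes tested.

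The interferon pathway, in which fish TRIM proteins are known to act, stood as follows in the same libraries. The lists of pathway and effector genes were drawn up with earlier results of these data known. Their counts are therefore a description and support no claim of their own. Of 22 listed genes from sensors to transcription factors 17 matched a symbol and 15 were tested; 13 had a positive log2 fold (48.6% of all genes had one), 6 were higher and 0 lower at an unadjusted p under 0.05 (3.67% and 3.47% of all genes), and the median log2 fold was 0.40 (-0.01 over all genes). The RNA helicase gene DHX58 was at 16.9 against 6.31 CPM (injured against uninjured fathers) and the interferon regulatory factor gene IRF7 at 12.998 against 5.42 CPM, while the adaptor gene mavs was at 44.3 against 47.9 CPM and the kinase gene TBK1 at 33.6 against 30.6 CPM; these 4 were picked after their values were seen. For IRF7, injured-father library 7 held 24.0 CPM and the other 3 of that group 7.36 to 11.9 CPM, and its log2 fold was 0.78 without that library, against 1.27 with it. Of 20 antiviral effector genes 15 were tested, 14 had a positive log2 fold and 13 were higher at an unadjusted p under 0.05, with a median log2 fold of 1.58, or 1.07 without injured-father library 7. Of these effectors 13, and of the 15 tested pathway genes 7, were highest in injured-father library 7, where 9.64% of all genes were highest. In both lists edgeR called 0 genes after adjustment, and DESeq2 called 1 of the pathway genes and 10 of the effectors, all of them higher, where it called 0.324% of all genes higher; it gave no adjusted p for the effectors mxa and mxb.

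The table also holds 67 TRIM genes whose symbols begin with trim and a digit, of which 31 were tested. A positive log2 fold was found for 18 of them (58.1%, against 48.6% of all genes), and the median log2 fold was 0.12. At an unadjusted p under 0.05, 3 were higher and 0 lower (3.67% and 3.47% of all genes), and in 0 did the groups separate (2.6% and 1.58% of all genes). Their difference from the finTRIM and bloodthirsty genes was not tested. Those 3 were trim107, trim105 and trim25. The last, known in mammals as a ubiquitin ligase of the viral RNA sensor RIG-I, averaged 8.40 CPM with injured fathers and 5.82 CPM with uninjured fathers.

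The summed markers of each immune cell type overlapped between the groups. Leukocyte markers, of which 5 of 6 matched a symbol, summed to 51.0 to 71.8 CPM with injured fathers and 40.0 to 60.8 CPM with uninjured fathers. The leukocyte sum was 71.8, 51.0, 66.1 and 69.8 CPM in injured-father libraries 1, 2, 4 and 7. In the same libraries the finTRIM sum was 145, 181, 168 and 201 CPM, and the macrophage marker sum was 160, 185, 225 and 329 CPM. With uninjured fathers the leukocyte sum was 50.7, 60.8, 40.0 and 51.5 CPM in libraries 1, 3, 4 and 5. There the finTRIM sum was 110.7, 123, 105 and 128 CPM, and the macrophage marker sum was 166, 197, 145 and 206 CPM. Macrophage markers, 4 of 6 matched, summed to 160 to 329 CPM with injured fathers and 145 to 206 CPM with uninjured fathers, highest in injured-father library 7, where cd74a gave 306 CPM of the sum; cd74a made up most of it in every library. The macrophage receptor gene csf1ra was at 5.83, 6.59, 3.94 and 5.37 CPM in injured-father libraries 1, 2, 4 and 7 and at 7.74, 7.20, 5.41 and 3.90 CPM in uninjured-father libraries 1, 3, 4 and 5, and c1qa was at 0.807 to 1.17 CPM with injured fathers and 0.657 to 1.30 CPM with uninjured fathers. The scavenger receptor gene marco was at 8.68 to 16.5 CPM with injured fathers and 6.56 to 7.50 CPM with uninjured fathers, with no overlap and its highest value in injured-father library 7. Markers of T and NK cells (5 of 6 matched) summed to at most 1.97 CPM, and those of B cells (5 of 5) to at most 7.92 CPM, in any library. Of the neutrophil markers 3 of 5 matched, summing to 1.34 to 28.6 CPM with injured fathers and 2.50 to 16.3 CPM with uninjured fathers. Most of that sum was npsn in every library, mmp13a was at most 0.607 CPM, and lyz was at 0 in all libraries. The part of these cells in the values of the finTRIM and bloodthirsty genes was not tested.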

How the data were processed

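The values the authors deposited are whole-number read counts for each gene, with no normalisation. Per the file headers, featureCounts 2.0.3 ran on GRCz11 with Ensembl gene models; strand was ignored, and neither reads placed at several loci nor reads on several genes entered the counts. Alignment was with STAR 2.7.10a, per the submitters' processing notes. Per the labels' protocols, libraries were amplified from 1 ng of RNA and read as single reads of 60 bases, with no molecular identifiers. Reads from the opposite strand outside another gene's exons count toward a member.

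Symbols came from a table of gene names (29201 of 32520 IDs matched). The comparison used edgeR 4.0.16 in R 4.3.3 (TMM factors, filterByExpr with a minimum count of 10, robust quasi-likelihood test, Benjamini-Hochberg adjustment over 13604 genes at 0.05) and was tested on simulated data. Each SE was derived from the log2 fold and the root of its F statistic. Alternatives were other scalings, filters, DESeq2 1.42.0, limma 3.58.1 voom, leaving out each library, a haemoglobin covariate and a replicate block.

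Named genes were, per family, the 8 tested members with the highest CPM per kb, the 5 with the smallest p in each direction, the 2 with the most counts below the filter, and ftr82 and ftr83. Members, lists and this rule were chosen with earlier results of these data known. Sequences of the members were not used here.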

Additional observations from a re-analysis of the deposited data

Results flagged for a closer look

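Within groups of 4 libraries, a single library stood apart from the other 3 in 6 of 58 sets of values examined for the named members and the family sums. For independent, normally distributed values about 1 in 20 would. The sets share the same libraries, the family sums hold the named members, and some values rest on few counts, so these rates cannot be compared. In injured-father library 7, ftr56 was at 15.4 CPM, where the other 3 libraries of that group were at 5.31 to 6.37 CPM, and ftr80 was at 17.1 CPM, where the others were at 6.37 to 7.36 CPM. In injured-father library 2, ftr82 was at 65.9 CPM, where the others were at 48.2 to 51.0 CPM. In injured-father library 4, btr25 was at 1.59 CPM, where the others were at 1.17 to 1.23 CPM. In uninjured-father library 5, ftr91 was at 0.156 CPM, on 2 counts, where the others were at 0.361 to 0.400 CPM. In uninjured-father library 4, ftr24 was at 0.505 CPM, where the others were at 0.781 to 0.803 CPM.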

How the results depend on the processing

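Of the members, edgeR called 0 under each alternative scaling, filter and left-out library, and limma voom called 0; DESeq2 called 1 member and 61 genes, and the replicate block called 20 genes, none of them a member. The higher members at an unadjusted p under 0.05 were 11 to 14 in these settings and 4 with the replicate block, which rests on the numbers 1 and 4 that both groups carry and leaves 1 residual degree of freedom; the labels do not say that a number pairs libraries, and deviations of same-numbered libraries correlated at 0.12 and -0.28. The median log2 fold of the finTRIM genes ranged from 0.58 to 0.75 without each library in turn and that of the bloodthirsty genes from 0.35 to 0.87. Without the low-count filter 50 of 64 finTRIM and 16 of 18 bloodthirsty genes had a positive log2 fold. With the filter these were 24 of 26 and 7 of 8, so the finTRIM share fell as members with few counts entered. The share over all genes without the filter is not given here. The filter left 34 of the 59 detected members. The log2 fold of btr18 ranged from -0.54 to 0.36 without each library in turn, positive only without uninjured-father library 1, and was 0.24 with the haemoglobin share as a covariate, and that of btr20 was -0.24 with the replicate block; the cause was not tested.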
